A study of Homo sapiens with 12 samples.

Results

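The heat shock transcription factor genes HSF1, HSF2 and HSF4, together with HSBP1, whose product binds HSF1, were followed through RNA sequencing of 12 cultures of MM1S and MM1R, cell lines of multiple myeloma, a cancer of plasma cells. They were taken by gene symbol, 4 of the 43735 genes in the table of counts, and all 4 were among the 14085 genes with enough reads to be tested. MM1S and MM1R come from the same patient, and the labels give MM1S as sensitive and MM1R as resistant to glucocorticoids. Each line was left untreated (UT) or received withaferin A (WA) at 1 µM for 3 h, with 3 cultures in each of the 4 groups. Cultures of a group differed in passage number, which was 16, 22 and 23 in MM1S and 4, 6 and 7 in MM1R, so that passage range and line cannot be told apart. Each line is a single established cell line, and the labels do not say whether untreated cultures received the solvent of WA. WA is a plant steroid lactone that reacts with thiols of proteins.

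Heat shock factors are transcription factors that bind heat shock elements, inverted repeats of the bases GAA in the promoters of chaperone genes. HSF1 is the main factor of the response to misfolded protein. In resting cells it is held as an inactive monomer by HSP90 and HSP70 chaperones, and under stress it forms trimers, enters or stays in the nucleus, and is modified by phosphorylation, acetylation and sumoylation. HSF2 is a short-lived protein that acts in development and can join HSF1 in mixed trimers, HSF4 is best known from the lens of the eye, and HSBP1 is a small coiled-coil protein that binds the trimerization domain of HSF1 and dampens its activity. Activation of HSF1 runs mainly through the protein, so that the mRNA levels measured here are not a measure of HSF1 activity, and chaperone mRNAs serve as the readout of its action. Plasma cells make large amounts of immunoglobulin and depend on chaperones for folding it.

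The element is shown first, as the sequence that heat shock factors bind. Whether they act through it on the target genes described further on was not tested. RefSeq promoter windows (GRCh38.p14, 250 bases before to 50 after a transcription start) were searched for an element of 3 units, GAANNTTCNNGAA or TTCNNGAANNTTC, each being the other read on the opposite strand. An element of 3 units occurred in the windows of 0.608% of 27305 genes and in 8 (40%) of the 20 genes of a list of heat shock targets that had a window. The shorter elements of 2 units, GAANNTTC and TTCNNGAA, which read the same on both strands and lie within the longer ones, occurred in 16.2% of all genes and 14 of these 20 (70%). Windows were present for HSF2, HSF4 and HSBP1, 5 windows in all, and none held an element of 3 or of 2 units. A match is a description of the letters and not of binding, and the lack of one says only that these letters were not in the window. Not all targets that rose with WA had an element. The windows of BAG3 (mean log2 fold change over both lines 4.88) and HSPH1 (3.46) held none of 3 or of 2 units. Elements of 3 or more units from some targets whose RNA rose with WA are given 5′ to 3′ on the strand of the gene. Each element is in capitals.
HSPA6 (chr1:161524438-161524506, plus strand): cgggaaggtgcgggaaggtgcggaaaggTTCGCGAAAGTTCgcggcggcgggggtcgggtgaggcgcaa
HSPA8 (chr11:123062326-123062386, minus strand): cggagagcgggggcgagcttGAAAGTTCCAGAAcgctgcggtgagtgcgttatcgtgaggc
HSP90AA1 (chr14:102087092-102087160, minus strand): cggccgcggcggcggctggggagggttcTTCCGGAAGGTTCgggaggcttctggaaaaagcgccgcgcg
CHORDC1 (chr11:90223069-90223137, minus strand): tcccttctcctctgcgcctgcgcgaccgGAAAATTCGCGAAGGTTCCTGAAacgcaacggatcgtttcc
SERPINH1 (chr11:75562149-75562217, plus strand): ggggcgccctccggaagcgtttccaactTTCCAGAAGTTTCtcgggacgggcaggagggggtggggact
For comparison, the 250 bases before the start of HSF2 and of HSBP1 are given in the same way and hold no capitals. They are the members called for the mean effect of WA over both lines. HSF4, not printed, had a mean log2 fold change of 0.39 that was not called.
HSF2 (chr6:122399301-122399550, plus strand): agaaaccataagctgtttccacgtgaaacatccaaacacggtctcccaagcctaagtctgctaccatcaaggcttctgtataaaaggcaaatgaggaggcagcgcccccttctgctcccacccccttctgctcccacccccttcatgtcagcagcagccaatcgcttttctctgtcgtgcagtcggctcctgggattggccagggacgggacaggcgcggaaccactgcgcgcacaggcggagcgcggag
HSBP1 (chr16:83807728-83807977, plus strand): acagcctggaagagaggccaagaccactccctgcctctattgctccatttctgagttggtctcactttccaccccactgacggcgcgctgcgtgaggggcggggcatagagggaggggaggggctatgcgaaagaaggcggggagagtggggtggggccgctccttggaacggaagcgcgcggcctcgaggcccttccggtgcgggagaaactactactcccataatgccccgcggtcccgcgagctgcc

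The counts behind the 4 genes were low to moderate. Libraries held 17625110 to 19368343 reads counted on genes, and levels are given as CPM, the counts relative to a common library size of 1000000 after TMM normalization. HSF1 had 68 to 125 reads per library, HSF4 154 to 346, HSBP1 373 to 603 and HSF2 374 to 826. In a group, the standard deviation that counting alone gives was 0.14 to 0.16 for HSF1 on the log2 scale and 0.05 to 0.07 for HSF2. Of the plasma cell markers, 8 of 9 were abundant in all libraries, from SDC1 to JCHAIN, and CD27 had 1 to 8 reads. Of the markers of mature B cells, none passed 3 reads in any library. The summed level of COL1A1, COL1A2 and EPCAM, chosen as markers of stromal or epithelial cells, was 0.930 to 2.86 CPM in untreated and 2.56 to 18.4 CPM in WA libraries, with COL1A2 at 0 reads in all 12 and COL1A1 at 9 to 294 reads. T cell markers summed to 3.83 to 11.9 CPM, mostly CD3E, myeloid markers to at most 0.669 CPM and erythroid markers to 3.36 to 9.50 CPM. The part of these other signals in the changes reported here was not tested.

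In GENCODE's annotation of GRCh37, HSF2 lies on the plus strand of chromosome 6 from 122720696 to 122754264 with 13 exons in its canonical transcript. HSF4 lies on the plus strand of chromosome 16 from 67198584 to 67203848 with 13 exons, and HSBP1 on the plus strand of the same chromosome from 83752916 to 83853342 with 4 exons. HSF1 lies on the plus strand of chromosome 8 from 145515273 to 145538383 with 13 exons. Levels could be set against each other per length only for HSF2 and HSF4. Untreated MM1S cells held HSF2 at 14.3 ± 1.35 and HSF4 at 6.72 ± 0.743 CPM per kilobase of the canonical transcript (SD, n = 3), above 63.9% and 47.2% of 12472 tested genes with a known length. In untreated MM1R cells the values were 13.1 ± 0.242 for HSF2 and 6.52 ± 1.53 CPM per kilobase for HSF4 (SD, n = 3). The canonical transcript of HSBP1 is long, 8649 bases, and how much of it was counted is not known, and the row of HSF1 has a limit of its own, described next.

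HSF1 was counted in a stretch of the table where genes are listed more than once. It had a second entry with 0 reads in every library, and the genes around it were listed again as well. Of the 10 other protein-coding genes in this stretch, 4 had no more than 3 reads in any library, among them DGAT1, the triglyceride synthesis enzyme whose span overlaps HSF1, with 0 to 2 reads, and SLC52A2, a riboflavin transporter, with 0 to 1. The median of the 10 was 15.5 reads per library. VPS28 had up to 496 reads on its second entry and 25 to 44 on the first. Across the table, 68.6% of 1231 protein-coding genes with a second entry stayed at or below 3 reads in all libraries, against 26.6% of 17620 with none. HSF2, HSF4 and HSBP1 had a single entry each. Whether the reads on HSF1 are all or part of its RNA was not tested, so its level is not ranked against other genes, and its changes and ratios are compared between groups only.

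**Figure D1:**
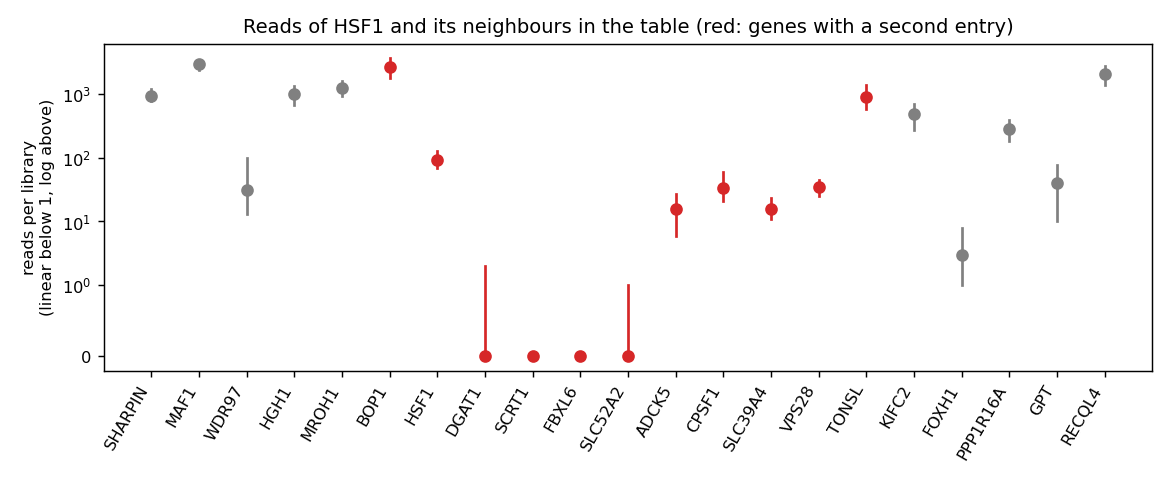
Reads per library (vertical axis, linear below 1 and logarithmic above) for HSF1 and the protein-coding genes next to it in the order of the table, with the 5 nearest single-entry genes on each side in grey. Points are medians and lines the range over 12 libraries; DGAT1, SCRT1, FBXL6 and SLC52A2 have medians of 0, while BOP1 and TONSL, at the ends of the red stretch, reach 3658 and 1373 reads.

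HSF2 was the member with the clearest change, a fall with WA. In untreated MM1R cells it stood at 34.7, 33.7 and 33.6 CPM in passages 4, 6 and 7, and with WA at 25.2, 26.1 and 22.8 CPM. The groups did not overlap, and all 3 WA libraries of MM1R were lower than each of the other 9 libraries. In untreated MM1S cells it stood at 35.6, 34.5 and 41.1 CPM in passages 16, 22 and 23, and with WA at 26.8, 35.7 and 31.4 CPM. Here the groups overlapped, since the culture of passage 22 was higher with WA than without. In order of the group means, HSF2 was highest in untreated MM1S (37.1 ± 3.51 CPM), then in untreated MM1R (34.0 ± 0.629), MM1S with WA (31.3 ± 4.45) and MM1R with WA (24.7 ± 1.73; SD, n = 3 each), and each of the first 3 overlapped its neighbour in this order while the last did not.

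In MM1R, HSF2 changed with WA by -0.46 on the log2 scale (SE 0.12, 95% confidence interval -0.73 to -0.20, adjusted p = 0.024, quasi-likelihood test of edgeR, p-values adjusted over all genes by Benjamini-Hochberg), a level 27.4% lower. It was the only one of the 4 genes called in this comparison at an adjusted p of 0.05, where 14% of all tested genes were called, and 33.3% of all genes had groups that did not overlap. In MM1S, the log2 fold change was -0.24 (SE 0.12, interval -0.51 to 0.02, adjusted p = 0.24, same edgeR test), and none of the 4 genes was called among 10.5% of all genes. The mean effect over both lines was -0.35 (SE 0.09, interval -0.54 to -0.17, adjusted p = 0.0079, same edgeR test). HSF2 was lower with WA in 5 of 6 pairs of the same passage. The log2 changes were -0.36 to -0.55 in MM1R and -0.40, 0.05 and -0.38 in MM1S. How many of all genes moved alike in as many pairs was not counted. Pair counts here and below are therefore descriptions and not particular to these genes. The effect in MM1R minus that in MM1S was -0.22 (interval -0.59 to 0.15, adjusted p = 1, same edgeR test), so the fall was not shown to differ between the lines. With 1 library left out the call in MM1R was lost without untreated passage 6 (adjusted p = 0.081), untreated passage 7 (0.055), or WA passage 4 (0.060), 6 (0.055) or 7 (0.12; same edgeR test). The mean effect kept its call with any of the 12 libraries left out (adjusted p = 0.0037 to 0.028, same edgeR test).

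**Figure D2:**
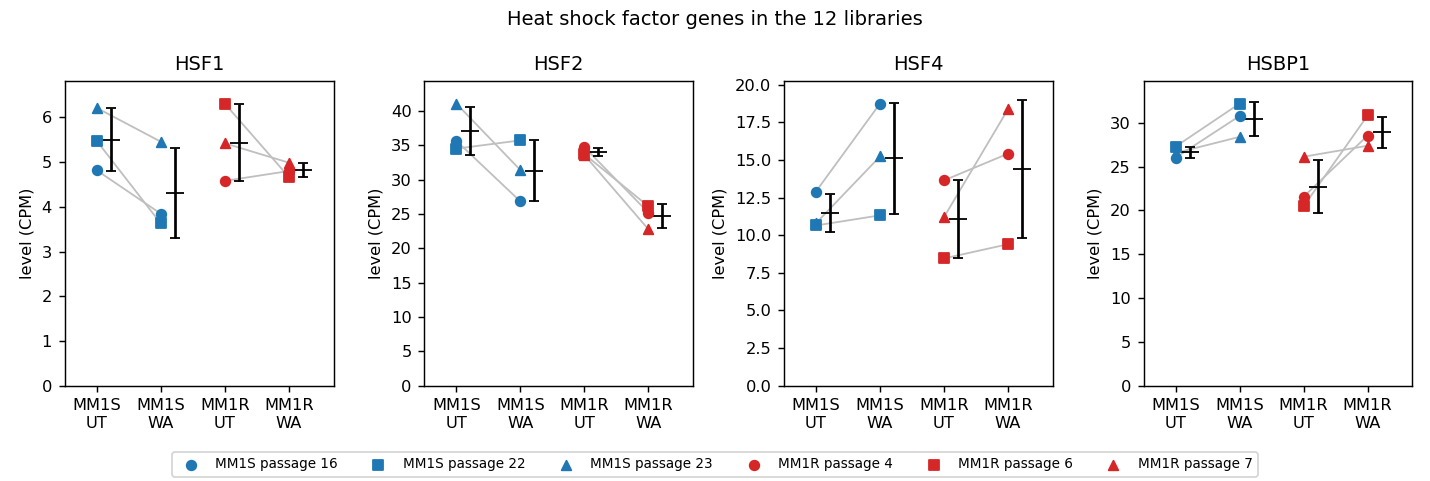
Level in CPM of HSF1, HSF2, HSF4 and HSBP1 in the 12 libraries, by line and treatment. Symbols mark passages, grey lines join the untreated and the WA culture of a passage, and black marks give the mean and SD of 3; HSF2 in MM1R with WA (22.8 to 26.1 CPM) lies under all other libraries, and HSF4 and HSBP1 rise along all 6 grey lines.

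HSBP1, the small HSF1-binding protein, moved the other way. It stood at 26.0, 27.3 and 26.5 CPM in untreated MM1S cells of passages 16, 22 and 23 and at 30.8, 32.2 and 28.4 CPM with WA. In MM1R it stood at 21.6, 20.5 and 26.1 CPM untreated and at 28.5, 30.8 and 27.4 CPM with WA in passages 4, 6 and 7. In neither line did the groups overlap. Taken by line, this was so for 30.3% of all genes in MM1S and 33.3% in MM1R. The share of genes without overlap in both lines was not counted. The group means were 30.4 ± 1.92 CPM in MM1S with WA, 28.9 ± 1.76 in MM1R with WA, 26.6 ± 0.636 in untreated MM1S and 22.7 ± 3.00 in untreated MM1R (SD, n = 3 each), where the first pair and the last pair of neighbours overlapped.

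The mean effect of WA on HSBP1 over both lines was 0.27 on the log2 scale (SE 0.08, interval 0.10 to 0.45, adjusted p = 0.024, quasi-likelihood test of edgeR), a level 20.7% higher. HSF2 and HSBP1 were the 2 of 4 genes called for the mean effect, for which 28.5% of all genes were called. HSBP1 was higher with WA in 6 of 6 pairs, by 0.07 to 0.58 on the log2 scale, and the share of all genes alike in this was not counted. By line, the log2 fold change was 0.35 in MM1R (SE 0.12, adjusted p = 0.061) and 0.19 in MM1S (SE 0.12, adjusted p = 0.33, same edgeR test), and the difference between the lines was 0.15 (interval -0.20 to 0.51). With passage as a replicate block, the change in MM1R was called by edgeR (log2 fold change 0.35, adjusted p = 0.033) and not by DESeq2 (0.34, adjusted p = 0.055). It was also called without untreated MM1R of passage 7 (0.46, adjusted p = 0.029, same edgeR test), where HSF2 was not. The call for the mean effect was lost with no filter on low counts (adjusted p = 0.14) and without untreated MM1S of passage 16 (0.051) or 23 (0.054), MM1S with WA of passage 22 (0.052), or MM1R of passage 6, untreated (0.11) or with WA (0.055; same edgeR test).

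HSF4 had the widest spread of log2 CPM of the 4 genes in 3 of the 4 groups, the exception being untreated MM1S, where HSF1 varied more. It stood at 12.9, 10.6 and 10.8 CPM in untreated MM1S of passages 16, 22 and 23 and at 18.7, 11.3 and 15.2 CPM with WA. In MM1R it stood at 13.6, 8.45 and 11.2 CPM untreated and at 15.4, 9.40 and 18.4 CPM with WA in passages 4, 6 and 7. All groups overlapped, with the passage 22 culture lowest in MM1S and the passage 6 culture lowest in MM1R under both treatments. The standard deviation of log2 CPM was 0.15 to 0.50 in the groups, against 0.09 to 0.10 from counting alone. HSF4 was higher with WA in 6 of 6 pairs, by 0.08 to 0.69 on the log2 scale, and here too the share of all genes was not counted. The fitted log2 fold changes were 0.40 in MM1S (SE 0.25, adjusted p = 0.35), 0.37 in MM1R (SE 0.25, adjusted p = 0.36) and 0.39 for the mean effect (SE 0.18, interval 0.01 to 0.76, adjusted p = 0.12, quasi-likelihood test of edgeR). With passage as a replicate block the mean effect was 0.37 and was called (adjusted p = 0.011 by edgeR, 0.020 by DESeq2). It was also called with no filter on low counts (adjusted p = 0.048) and without MM1R with WA of passage 6 (0.031, same edgeR test).

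HSF1 itself showed no change past the test. It stood at 4.82, 5.48 and 6.21 CPM in untreated MM1S of passages 16, 22 and 23 and at 3.85, 3.63 and 5.46 CPM with WA. In MM1R of passages 4, 6 and 7 it stood at 4.58, 6.31 and 5.42 CPM untreated and at 4.80, 4.67 and 4.99 CPM with WA. The groups overlapped in both lines, and HSF1 was lower with WA in 5 of 6 pairs. On the log2 scale the mean effect was -0.26 (SE 0.15, adjusted p = 0.20, quasi-likelihood test of edgeR), with an interval from 0.671-fold to 1.04-fold. By line it was -0.35 in MM1S (interval -0.80 to 0.09) and -0.17 in MM1R (interval -0.62 to 0.27), so that at this depth levels down to 0.576-fold in MM1S and 0.652-fold in MM1R lie within the interval. RNA was taken from whole cultures, so for all 4 genes fewer cells with the RNA and less RNA per cell cannot be told apart.

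**Figure D3:**
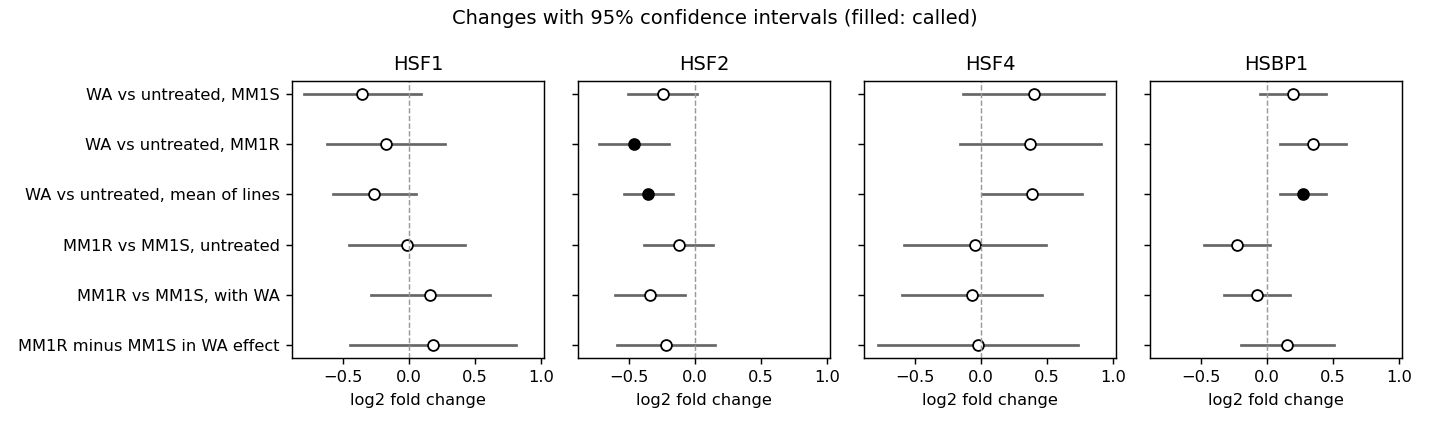
Log2 fold changes of the 4 genes in 6 comparisons (rows), with 95% confidence intervals as lines. Filled points passed the limit of their comparison, which were HSF2 with WA in MM1R and in the mean of both lines, and HSBP1 in the mean; all intervals in the row of the difference between lines include 0.

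Between the lines, none of the 4 genes was called. The limits were an adjusted p of 0.01 together with at least 1 on the log2 scale in either direction, which 2.97% of all genes passed in untreated cells and 3.04% with WA. With an adjusted p of 0.05 and no limit on the fold change, 11.9% and 12% of all genes were called and again none of these. The largest differences were -0.23 for HSBP1 in untreated cells (SE 0.12, adjusted p = 0.24) and -0.34 for HSF2 with WA (SE 0.12, adjusted p = 0.088, same edgeR test), both lower in MM1R. The HSF2 groups under WA were narrowly apart, with MM1R at no more than 26.1 CPM and MM1S at no less than 26.8 CPM. The share of all genes without overlap between the lines was not counted, so this gap cannot be called particular to HSF2. For HSF1 the log2 difference of untreated MM1R to MM1S was -0.02 (interval -0.46 to 0.42) and for HSF4 -0.04 (interval -0.58 to 0.49). The difference between lines in the effect of WA was called for 0% of genes, with 97 of 14085 at an unadjusted p under 0.05 (same edgeR test). That is fewer than uniform p-values would give, and this fit did not use the pairing by passage. The lack of calls therefore does not show that the effects were equal in the 2 lines.

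Ratios of reads within a library do not depend on how libraries are scaled, and they were used to follow the balance of the factors and HSBP1. Since the row of HSF1 may hold only part of its reads, the size of a ratio to HSF1 is no measure of relative abundance, and whether the counted part is the same in all groups was not tested. The ratio of HSBP1 to HSF2 was 0.730, 0.790 and 0.646 in untreated MM1S and 1.15, 0.901 and 0.904 with WA in passages 16, 22 and 23. In MM1R of passages 4, 6 and 7 it was 0.621, 0.607 and 0.778 untreated and 1.13, 1.18 and 1.20 with WA. Every WA library lay above every untreated library. HSF2 had more reads than HSBP1 in all 6 untreated cultures and in 2 of the 6 with WA. Both genes were already called for the mean effect of WA in opposite directions, so this ratio is not independent of those calls. The ratio was 1.55-fold higher with WA (log2 difference 0.63, p = 0.005, the smallest this exact two-sided permutation test of 400 arrangements within lines can give, adjusted p = 0.03 over 6 tests). The ratio of HSBP1 to HSF1 was 3.24 to 5.40 untreated and 5.20 to 8.87 with WA, higher in 6 of 6 pairs and 1.45-fold higher in the mean (p = 0.01, adjusted p = 0.03, same exact permutation test). Its adjusted p was over 0.05 without untreated MM1S of passage 16, 22 or 23 or MM1R with WA of passage 4 or 6 (0.06 to 0.105, same exact permutation test). The ratio of HSF2 to HSF1 was 5.34 to 7.58 untreated and 4.56 to 9.84 with WA, with a log2 difference of -0.09 (p = 0.55, same exact permutation test). None of the 3 ratios differed between lines past the test, with adjusted p from 0.12 to 0.54 (exact permutation test within treatments).

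**Figure D4:**
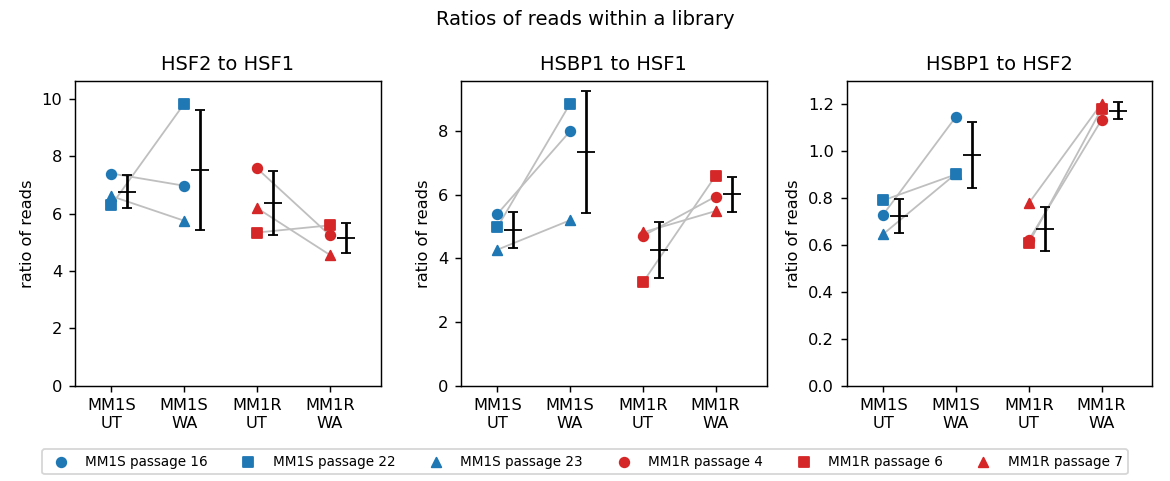
Ratio of reads between pairs of genes in each of the 12 libraries, by line and treatment. Symbols mark passages, grey lines join the untreated and WA cultures of a passage, and black marks give mean and SD of 3; for HSBP1 to HSF2 all WA libraries lie at 0.901 or higher and all untreated ones at 0.790 or lower.

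The listed textbook targets of HSF1 rose in both lines while the genes of the factors moved little. The list was drawn up with earlier results of these data known, so the rise is a description and not independent support. Of 23 listed targets 21 were tested, and all 21 rose in the mean effect of WA (adjusted p under 0.05 by quasi-likelihood test of edgeR), 21 in MM1R and 20 in MM1S, where HSPE1, the mitochondrial co-chaperonin, was at a log2 fold change of 1.03 (adjusted p = 0.070). Of all tested genes, 15.1% rose in the mean effect, and 14% in MM1R and 10.5% in MM1S were called in either direction. The median log2 fold change over the tested targets was 2.02 in MM1R and 1.88 in MM1S, against 0.01 over all genes in both. With HSPA1B at the lower bound of its fold, the median was 1.88 in both lines. HSPA6, an HSP70 that is nearly silent in resting cells, went from 0.895 to 1.03 CPM in untreated MM1S to 316 to 1845 CPM with WA, and from 1.09 to 1.81 to between 1847 and 5470 CPM in MM1R. DNAJB1, the HSP40 partner of HSP70, rose by 5.16 on the log2 scale (SE 0.33, adjusted p = 1.8e-07, same edgeR test) from 142 to 189 CPM in untreated libraries to 2675 to 11618 with WA. SERPINH1, the collagen chaperone HSP47, rose by 5.41 (SE 0.80, adjusted p = 0.00026, same edgeR test), with 1 to 93 reads in untreated and 82 to 5667 in WA libraries. HSPA1B had 0 to 1 reads untreated and 10 to 19 with WA, at least 4.60-fold higher in MM1S and 3.68-fold in MM1R when untreated libraries are set to 3 reads each, and HSPA1A, its near-identical copy, had 0 reads in all libraries, so that both are uncertain. The listed targets took 0.924% to 1.19% of all reads in untreated and 4.20% to 6.64% in WA libraries.

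By pair of cultures, the targets and the factors can be set side by side, on the log2 scale of CPM with a pseudocount of 0.5. The median change over the 21 tested targets was 1.61, 1.64 and 1.79 in MM1S of passages 16, 22 and 23 and 1.74, 1.48 and 1.91 in MM1R of passages 4, 6 and 7. It was highest in MM1R of passage 7, where HSF2 changed by -0.55, HSF4 by 0.69, HSBP1 by 0.07 and HSF1 by -0.11. It was lowest in MM1R of passage 6, where HSF2 changed by -0.36, HSF4 by 0.14, HSBP1 by 0.58 and HSF1 by -0.40. HSPA6 alone gave another order, with its smallest rise in MM1S of passage 22 (7.69), where HSF2 changed by 0.05, HSF4 by 0.08, HSBP1 by 0.23 and HSF1 by -0.53. These are 6 pairs, and no test was made of a relation.

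Of the chaperones and cofactors that hold HSF1 inactive or release it, 11 of 12 were tested, 8 rose, 1 fell and 2 did not pass in the mean effect of WA, for which 15.1% of all genes rose and 13.4% fell. HSP90AA1, the inducible HSP90, rose by 3.60 on the log2 scale (SE 0.17, adjusted p = 1.8e-08) and HSPA8, the constitutive HSP70, by 1.77 (SE 0.11, adjusted p = 1.8e-07, quasi-likelihood test of edgeR). In CPM, HSP90AA1 went from 496 to 808 in untreated libraries to 6003 to 11001 with WA, and HSPA8 from 2341 to 3202 to between 8236 and 11605. The gene that fell was STUB1, the ubiquitin ligase CHIP, which binds HSP70 (-0.39, SE 0.08, adjusted p = 0.0034). VCP and HDAC6, which act on ubiquitinated proteins, were at -0.21 and -0.04 and did not pass. DNAJB1, HSPA1B and 4 more of the tested genes of this list are also among the targets, so the 2 lists are not independent. The median of the 11 was 1.36, against 0.01 over all genes.

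Of 23 enzymes that modify HSF1, 22 were tested, of which 2 rose, 5 fell and 15 did not pass in the mean effect of WA. This share is near the 28.5% of all genes called. The ones that rose were the acetyltransferases EP300, by 0.47 (SE 0.10, adjusted p = 0.0041), and CREBBP, by 0.34 (SE 0.10, adjusted p = 0.016, quasi-likelihood test of edgeR). The largest fall was that of PLK1, a mitotic kinase that phosphorylates HSF1, by -0.63 (SE 0.12, adjusted p = 0.0015), followed by SUMO2, a small ubiquitin-like modifier, by -0.33 (SE 0.09, adjusted p = 0.016, same edgeR test). PLK1 stood at 205 to 319 CPM in untreated and 133 to 209 CPM in WA libraries, and EP300 at 105 to 161 and 178 to 225 CPM. Their median was -0.11 in the mean effect and no member passed the limit between the lines.

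Of the 9 coactivators and chromatin partners of HSF1, all were tested, none rose and 2 fell, where 28.5% of all genes were called. ATF1, a CREB family factor, fell by 0.41 on the log2 scale (SE 0.09, adjusted p = 0.0037) and SMARCA4, the ATPase of the SWI/SNF remodeller, by 0.34 (SE 0.08, adjusted p = 0.0044, quasi-likelihood test of edgeR). Of the 7 partners of HSF2, 1 rose, 3 fell and 3 did not pass, beside 15.1% of all genes that rose and 13.4% that fell. CDC20 and ANAPC2, parts of the anaphase-promoting complex, which ubiquitinates HSF2, changed by -0.50 (SE 0.17, adjusted p = 0.038) and -0.33 (SE 0.07, adjusted p = 0.0033), and WDR5, a histone methyltransferase subunit, by -0.32 (SE 0.11, adjusted p = 0.047, same edgeR test). CUL5, a ubiquitin ligase scaffold, rose by 0.24 (SE 0.07, adjusted p = 0.028, same edgeR test). The median of the HSF2 partners was -0.17 and that of the HSF1 partners -0.12.

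**Figure D5:**
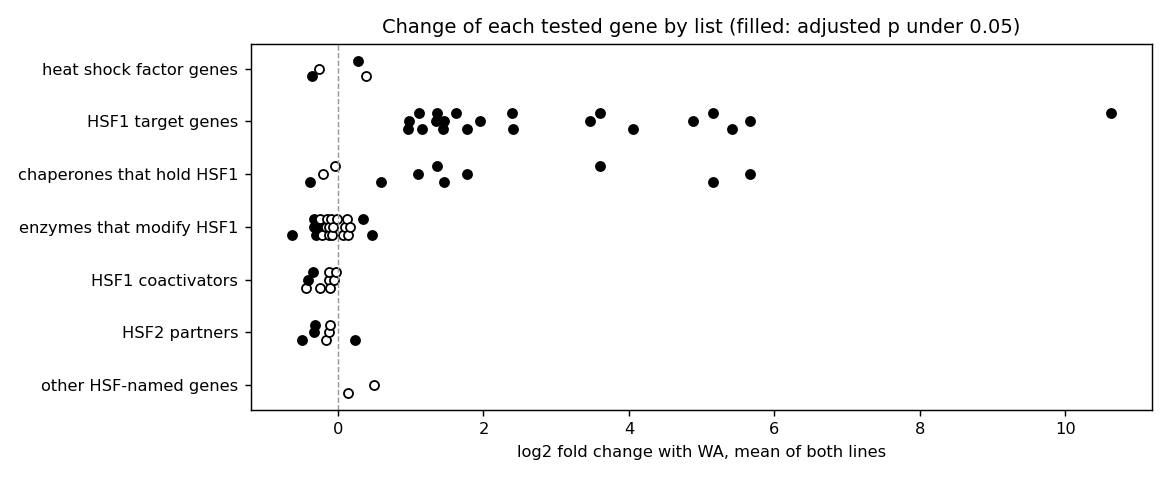
Log2 fold change with WA, mean of both lines, for each tested gene of the heat shock factor family and of 6 lists (rows, points spread vertically for visibility). Filled points passed an adjusted p of 0.05; the targets reach from 0.97 to 10.6, while the 4 factor genes lie between -0.35 and 0.39.

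Of 7 further genes named as heat shock factors or for binding one, 5 (HSF5, HSFX1, HSFX2, HSFX3 and HSFX4) had at most 3 reads in any library and were not tested. HSBP1L1, a gene related in sequence to HSBP1, was the only one called between the lines. It stood at 3.28 to 4.40 CPM in untreated MM1S and 7.58 to 12.2 CPM in untreated MM1R, a log2 difference of 1.43 (SE 0.21, adjusted p = 0.00057, quasi-likelihood test of edgeR). With WA the levels were 4.00 to 4.66 CPM in MM1S and 9.23 to 12.2 CPM in MM1R, and the mean effect of WA was 0.14 (adjusted p = 0.51, same edgeR test). HSF2BP, which binds HSF2, had 2 to 15 reads.

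Of the genes next to the members on the chromosome, only some were counted. The gene annotated near HSF2 was not counted, nor was a protein-coding gene that overlaps HSF4 on the same strand. BOP1, a ribosome biogenesis factor transcribed away from HSF1 on the other strand, fell with WA by 0.60 on the log2 scale (SE 0.11, adjusted p = 0.0015, quasi-likelihood test of edgeR) and had 1768 to 3658 reads. NOL3, an inhibitor of cell death on the strand of HSF4 and within 5000 bases of it, rose by 0.57 (SE 0.09, adjusted p = 0.00029, same edgeR test). FBXL8, on the same strand, was at 0.56 (SE 0.22, adjusted p = 0.073) and TRADD, on the other strand, at 0.16 (SE 0.11, adjusted p = 0.31, same edgeR test). CDH13, whose span overlaps that of HSBP1, had 0 to 3 reads. Whether counting used the strand is not given in the sources used here.

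The genes whose levels followed each member most closely were sought among 12321 genes with a mean of at least 1 CPM, by Pearson correlation of log2 CPM over the 12 libraries. For HSF2 they were IPO7, a nuclear import receptor (r = 0.98), URB1, a ribosome biogenesis factor (0.97), and NUP153, a nuclear pore protein (0.97). IPO7 went from 349 to 250 CPM in MM1S and from 278 to 166 CPM in MM1R in the group means, the same order of groups as HSF2. For HSBP1 they were TPD52L2 (r = 0.90), MRPS6, a mitochondrial ribosomal protein (0.90), and APLP2, a relative of the amyloid precursor (0.89). For HSF4 they were MIGA2 (r = 0.93), FAM193B (0.93) and PRRT2 (0.92), and for HSF1 they were CCDC61 (r = 0.84), PKMYT1, a kinase that restrains CDK1 (0.84), and RTN4IP1 (0.83). These libraries share line, treatment and passage, so that the values describe likeness over the 12 libraries only.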

How the data were processed

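RNA of 12 cultures (MM1S and MM1R, untreated or with 1 µM WA for 3 h, 3 per group) was sequenced, and groups and passage numbers follow the sample labels. The authors deposited raw counts (reads per gene, not normalized), made with STAR 2.7.3a on hg19 after FastQC 0.11.5. The gene annotation is not given in the sources used here. A second deposited table of normalized counts was not used, and 0 columns were left unmatched.

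The members and all gene lists were chosen with earlier results of these data known. Genes were kept with filterByExpr of edgeR 4.0.16 (R 4.3.3), which left 14085 of 26497 with a read, scaled with TMM and tested by the quasi-likelihood test of edgeR, with all 12 libraries in 1 fit and p-values adjusted by Benjamini-Hochberg. WA effects were called at an adjusted p of 0.05, line differences at 0.01 with a log2 fold change of 1 in size. CPM are counts relative to a library size of 1000000 after TMM. Ratios used 0.5 added reads and exact permutation tests. The script was tested on simulated data. Named genes were the 4 members, up to 4 of each list with the largest called mean effect of WA and up to 2 called between untreated lines, 3 genes most like each member, and genes within 5000 bases. STUB1, VCP, HDAC6 and HSPE1, genes next to HSF1 in the table, HSF2BP and the relatives near 0 reads were added after their values were seen.

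A count of 3 reads was taken as the floor, and limits cover counting error only, since reads carry no molecular identifiers. Passage numbers pair the cultures. Deviations from the group mean correlated between untreated and WA cultures of the same passage (r = 0.74, 0.26 and 0.49 for 16, 22 and 23, and 0.43, 0.22 and 0.25 for 4, 6 and 7), although passages 22 and 23 correlated as well with each other (0.35 and 0.42). Between replicate libraries, chi-square over its degrees of freedom was 8.06 to 44.3, far over sampling noise, so none was counted as a repeat. The paper calls the cultures biologically independent. Alternatives were DESeq2 1.42.0, its size factors in edgeR, other filters, the 6 compared libraries alone, passage as replicate block, and leaving out each library.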

Additional observations from a re-analysis of the deposited data

How the results depend on the processing

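Directions of called changes held under all alternatives run. At least 10 reads in every library and passage as replicate block in edgeR each gave 2 members called with WA in MM1R instead of 1, adding HSBP1 (log2 fold change 0.39 and 0.35), which the block in DESeq2 did not call (0.34). With no filter, the mean effect was called for HSF4 (0.36) and not for HSBP1 (0.25). With the replicate block, that of HSF4 was called by edgeR (0.37) and DESeq2 (0.35), and the block changed no other call for the mean effect.

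With 1 library left out, members called in MM1R numbered 0 to 1 (HSBP1 in place of HSF2 without untreated passage 7) and for the mean effect 1 to 2. The log2 fold change in MM1R was -0.49 to -0.38 for HSF2 and 0.27 to 0.46 for HSBP1, and the mean effect 0.22 to 0.33 for HSBP1 and 0.29 to 0.51 for HSF4. The log2 difference of the HSBP1 to HSF1 ratio with WA was 0.45 to 0.65, and that of HSF2 to HSF1 between lines -0.40 to -0.20, past the test only without untreated MM1R of passage 4. The medians of the targets (2.02 in MM1R, 1.95 in the mean), of the chaperones (1.36 in MM1S) and of the relatives (0.54 in MM1S) went to 1.79, 1.79, 1.22 and 0.22 with at least 10 reads in every library, where fewer genes were tested. The causes were not tested. Between 68 and 125 reads limit the precision for HSF1.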
